A study of Sus scrofa with 4 samples.

Results

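The genes described here are 9 apolipoprotein, lipid transporter and nuclear receptor genes of the liver X receptor (LXR) cholesterol efflux pathway, taken by name from the 16192 protein-coding genes listed for the differentiating pig subcutaneous preadipocyte. They are NR1H3 and NR1H2, which encode the receptors LXRα and LXRβ, the transporters ABCA1 and ABCG1, the HDL receptor SCARB1, the secreted lipid carriers APOE, APOD and PLTP, and MYLIP, which encodes the ubiquitin ligase IDOL. All 9 were listed in every library, and 7 of them were reliably expressed, meaning that 3 or more of the 4 libraries gave 1 FPKM or above (FPKM is a count of sequenced fragments divided by transcript length and by library size). APOD and ABCG1 did not reach that level and are given as values only.

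The cells came from the subcutaneous fat of male Chinese Erhualian piglets that were 5 days old. They were grown to confluence (D0), held for 2 days in a cocktail of dexamethasone, IBMX and insulin (D2), then for another 2 days in insulin (D4), and returned to growth medium until D8. RNA of 3 piglets was pooled in equal amounts into 1 library a stage, so D0, D2, D4 and D8 each stand on a single library, a stage cannot be told apart from its library, and neither a replicate error nor a p-value could be had. Intervals printed with the values are 95% exact counting intervals on read numbers that were recovered from the deposited FPKM, and they cover counting error only. A gene is said to have risen or fallen when it was reliably expressed and its FPKM, with 0.01 added, differed by at least 2-fold between a pair of libraries.

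LXRα and LXRβ are sensors of oxidized cholesterol that bind DNA together with a retinoid X receptor (RXR). When their ligand is present they switch on genes that move cholesterol out of the cell: ABCA1 loads lipid onto poor apolipoprotein particles, ABCG1 onto mature HDL, apolipoprotein E accepts the lipid, and IDOL marks lipoprotein receptors for degradation. LXRβ is found in most cells, while LXRα is best known from liver, fat and macrophages, and in fat cells LXR also acts on fatty acid synthesis genes.

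The library totals behind the FPKM values were 75387428, 54987801, 74358922 and 54128151 fragments for D0, D2, D4 and D8. The identity of the cultures was checked on marker genes. All 9 of the reliably expressed adipocyte markers, of 12 listed, rose from D0 to D2, and the summed FPKM of the 12 was 125, 511, 1848 and 2183 at D0, D2, D4 and D8. FABP4, a fatty acid binding protein of adipocytes, stood at 77.5, 201, 853 and 1557 FPKM. Without FABP4, the other 11 summed to 48.0, 310, 995 and 625 FPKM. In D8 vs D4, 0 of the 9 reliably expressed markers rose and 4 fell (PLIN1, PPARG, CEBPA and LIPE). The median log2 ratio was -0.81, and 2 of the 9 were above 0. The expression filter leaves out markers that come up late. CIDEC had 0.271, 0.780, 5.01 and 54.6 FPKM at D0, D2, D4 and D8, PLIN4 had 0.0941, 0.213, 2.65 and 4.76, and LEP had 0.291, 0.156, 0.0269 and 0.314. Of 9 fibroblast and preadipocyte markers, 8 were listed as protein-coding genes, and DLK1 was not. The 8 summed to between 2444 and 3505 FPKM, most of it from COL1A2, and the others summed to 457, 597, 463 and 365. Of the 7 that were reliably expressed, PDGFRB rose and NT5E fell from D0 to D4, and ENG, PDGFRA and PDGFRB fell from D4 to D8. The 6 smooth muscle markers followed another course, with sums of 6205, 664, 509 and 4810 at D0, D2, D4 and D8. In these bulk libraries, more cells of a type and more RNA per cell cannot be told apart.

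The receptor genes had opposite courses. NR1H3 (chr2:15315283-15336785, minus strand, Sscrofa11.1) had an FPKM of 13.7, 19.6, 27.7 and 21.1 at D0, D2, D4 and D8. It was lowest in the confluent preadipocytes and highest on day 4. The D4 level was 2.01 times the D0 level (95% counting interval 1.93 to 2.10), so its call as a rise sits on the threshold, and it was lost when the libraries were scaled by the median ratio of all genes (log2 ratio 0.95) or when 1 was added to the FPKM (0.96). At D8 the level was 1.54 times that at D0 (1.47 to 1.61). NR1H2 (chr6:55238536-55245457, plus strand) had an FPKM of 15.2, 13.1, 10.5 and 12.7 in the same order. It was highest at D0 and was the single gene of the 9 with its lowest value at D4, at 0.689 times the D0 level (0.648 to 0.733), which is under the 2-fold limit.

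Within a library, the ratio of the NR1H3 to the NR1H2 FPKM does not depend on how the libraries are scaled. This ratio was 0.903 (0.858 to 0.951) on day 0, 1.5 (1.41 to 1.59) on day 2, 2.64 (2.50 to 2.79) on day 4 and 1.66 (1.57 to 1.77) on day 8. NR1H2 thus led by a small margin in the preadipocyte, and NR1H3 led in the 3 later libraries. The sum of the pair changed less than its make-up, from 29.0 FPKM at D0 to 32.7, 38.2 and 33.8, while the NR1H3 share was 47.5%, 60.0%, 72.5% and 62.5%.

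**Figure D1:**
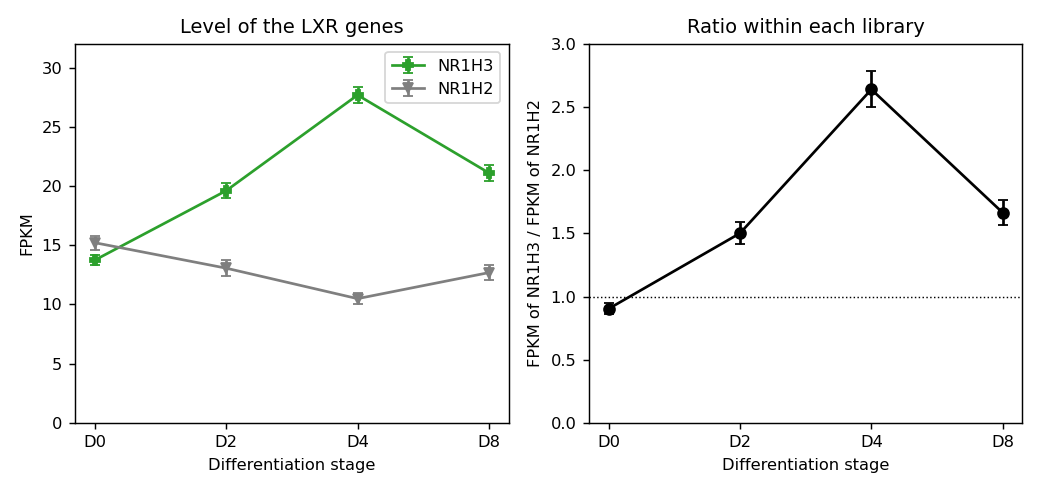
FPKM of the LXR genes NR1H3 and NR1H2 (left) and the NR1H3 to NR1H2 ratio of FPKM within each library (right) against differentiation stage, 1 pooled library a stage. Bars are 95% counting intervals, and the dotted line marks equal levels, which the ratio crosses between D0 (0.903) and D2 (1.5).

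The NR1H3 gene lies in a crowded stretch of the genome. Its span overlaps 177 bases of MADD on the same strand, which stood between 0.770 and 1.38 FPKM, and 2771 bases of ACP2 on the opposite strand, which stood between 2.33 and 3.98 FPKM. The library kit kept the strand, but whether the counting used it is not given in the sources used here. Both neighbours were far below NR1H3 in every library.

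ABCA1, which exports cholesterol and phospholipid to apolipoproteins (chr1:246144277-246278492, minus strand), had an FPKM of 7.69, 24.6, 45.0 and 29.6 at D0, D2, D4 and D8. All 3 later libraries lay above the preadipocyte library, and D4 lay highest. The increase was 3.20-fold by D2 (3.10 to 3.30) and 5.85-fold by D4 (5.70 to 6.02), and 3.85-fold was left at D8 (3.74 to 3.97). Between D4 and D8 the level changed by a factor of 0.658 (0.646 to 0.670), which is under the 2-fold limit.

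ABCG1, the partner transporter that exports cholesterol to mature HDL (chr13:205561897-205628428, plus strand), was close to undetected. Its FPKM was 0.0123, 0.00282, 0.0438 and 0.0344 at D0, D2, D4 and D8. These values stand on 6, 1, 21 and 12 reads. The D4 to D0 ratio was 3.55 with a counting interval of 1.39 to 10.7, and no direction is drawn from the single read at D2. With 34818 reads over ABCA1 at D4, the ABCA1 level was 1028 times the ABCG1 level per length in that library (673 to 1661). The 2 transporters are both textbook LXR targets, and their levels lay 623-fold apart even in the library where they were closest, D0 (286 to 1699).

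SCARB1, a receptor that lets cholesterol pass between cells and HDL (chr14:28301421-28393568, plus strand), had an FPKM of 2.26, 2.12, 4.82 and 2.73 at D0, D2, D4 and D8. The D4 library stood apart from the other three, which lay close together. Its level at D2 was 0.937 times that at D0, with an interval that holds 1 (0.808 to 1.09) and with the opposite sign when libraries were scaled by their protein-coding sum. Between D2 and D4 it rose 2.27-fold (2.0 to 2.59), and at D8 it was 1.21 times the D0 level (1.05 to 1.39). Adding 1 to the FPKM ended its calls in D4 vs D2 (log2 ratio 0.90) and D4 vs D0 (0.84).

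APOE, the gene of the apolipoprotein that accepts cellular cholesterol (chr6:51373113-51375333, plus strand), changed most among the reliably expressed genes of the group. Its FPKM was 33.3, 148, 736 and 719 at D0, D2, D4 and D8. It ranked 1616th of the 16192 protein-coding genes at D0, 360th at D2, 90th at D4 and 97th at D8. The steps were 4.43-fold from D0 to D2 (4.24 to 4.62) and 4.99-fold from D2 to D4 (4.88 to 5.10), which left D4 at 22.1-fold (21.2 to 22.9) and D8 at 21.6-fold (20.7 to 22.4) over D0. Of all reliably expressed genes, 99.6% had a smaller D4 to D0 ratio. Between D4 and D8 the ratio was 0.977, and it was above 1 under median-ratio scaling (log2 ratio 0.18), so no direction is drawn for that step. Of the 3 protein-coding genes listed within 50 kb of APOE, CLPTM1 rose from D0 to D4 (2.16, 4.72, 7.12 and 2.63 FPKM), and NECTIN2 (2.01, 1.65, 2.23 and 1.22 FPKM) and the nearest, TOMM40, at a distance of 3181 bases (38.1, 31.3, 34.8 and 32.6 FPKM), stayed under the 2-fold limit. These neighbours were named after their values were seen.

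APOD, a lipocalin that carries small hydrophobic molecules and in spite of its name is no relative of APOE (chr13:132514546-132562594, minus strand), was far lower. Its FPKM was 0.0628, 0.230, 1.17 and 0.627 at D0, D2, D4 and D8, on 6, 16, 110 and 43 reads. Only the D4 library passed 1 FPKM, and its interval was 0.960 to 1.41. The D4 level was 18.6 times that at D0, with an interval of 8.27 to 51.7, and the D8 level was 9.98 times (4.23 to 28.7). Per length, APOE was 531 times APOD at D0 (244 to 1447) and 1146 times at D8 (851 to 1584).

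PLTP, which transfers phospholipid between lipoproteins (chr17:48089789-48101604, minus strand), had an FPKM of 2.05, 2.44, 3.81 and 3.34 at D0, D2, D4 and D8. Its D4 level was 1.86 times the D0 level (1.62 to 2.14) and its D8 level 1.63 times (1.40 to 1.90), so it was higher in both without passing the 2-fold limit. The D8 to D4 ratio of 0.877 had an interval that holds 1 (0.767 to 1.0) and changed sign under median-ratio scaling. The span of PLTP overlaps 183 bases of CTSA on the opposite strand, a more abundant gene at 11.3, 17.1, 21.1 and 10.2 FPKM, and the part of those reads in the PLTP values was not tested.

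MYLIP, the gene of the ligase that removes lipoprotein receptors (chr7:12117240-12137934, plus strand), was the one gene of the group that both rose and fell. Its FPKM was 1.68, 6.89, 11.4 and 3.23 at D0, D2, D4 and D8. It rose 4.11-fold by D2 (3.73 to 4.53) and stood at 6.80-fold by D4 (6.22 to 7.44). From D4 to D8 it changed by a factor of 0.283 (0.262 to 0.306), and 1.19% of the reliably expressed genes had a lower D8 to D4 ratio. The D8 level was 1.93 times that at D0 (1.73 to 2.15), just outside the 2-fold limit as NR1H3 was just inside it at D4, and the ratio passed the limit under median-ratio scaling (log2 ratio 1.10).

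**Figure D2:**
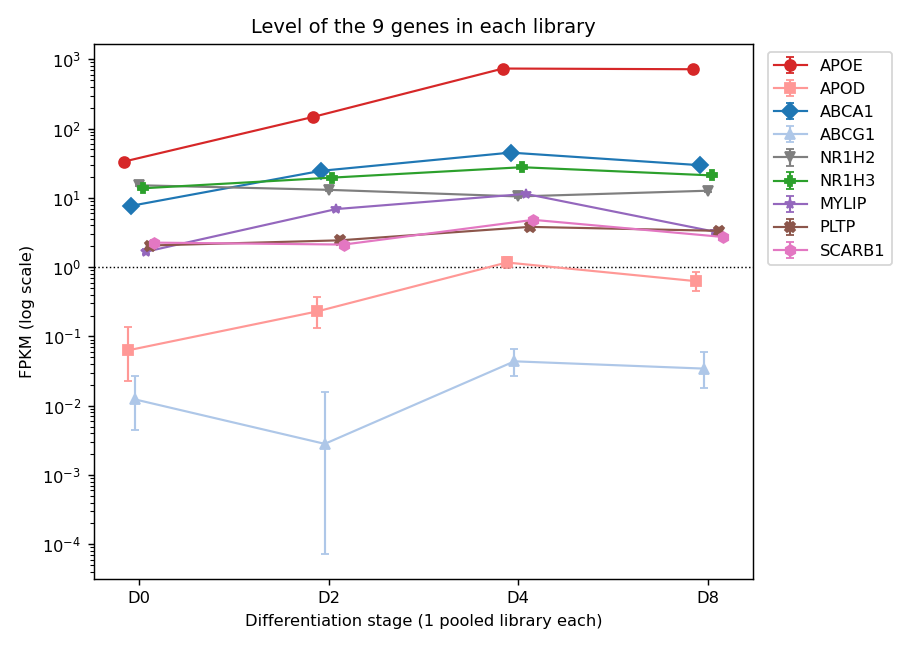
FPKM of the 9 genes on a log axis in the libraries of D0, D2, D4 and D8, with 95% counting intervals where they are wider than the symbol and a dotted line at 1 FPKM. APOE reaches 736 at D4, ABCG1 stays under 0.05 in all 4 libraries, and 8 of the 9 genes have their highest value at D4. For APOE and PLTP the order of D4 and D8 reverses under median-ratio scaling. For ABCG1 the interval of the D8 to D4 ratio holds 1 (0.352 to 1.67).

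Of the 7 reliably expressed genes, 6 were highest at D4 in FPKM as deposited, and NR1H2 was lowest there. For APOE and PLTP among the 6, D8 lay above D4 under median-ratio scaling (log2 ratios 0.18 and 0.02), so their place as highest at D4 depends on the scaling. Over all 9191 reliably expressed protein-coding genes, 37.3% were highest and 17.5% were lowest at D4. A change of at least 2-fold from D0 in at least 1 later library was seen for 5 of the 7 genes, APOE, ABCA1, NR1H3, MYLIP and SCARB1, against 25.4% of all. These 9 genes were chosen with results of these data known, and the counts describe them without a test.

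From D0 to D2, under the cocktail, 3 of the 7 rose (APOE, MYLIP and ABCA1) and 0 fell, while 6.67% of all genes rose and 10.1% fell. The median log2 ratio of the 7 was 0.51, against -0.03 over all genes. From D2 to D4, in insulin, 2 rose (APOE and SCARB1) and 0 fell, against 4.24% and 0.838% of all, with medians of 0.73 and 0.09. ABCA1 was 1.83 times higher (1.80 to 1.87) and MYLIP 1.66 times (1.56 to 1.76) in that step, both under the limit. From D4 to D8, in growth medium, 0 rose and MYLIP fell, against 4.43% and 10.1% of all. In that comparison 6 of the 7 log2 ratios were below 0 with a median of -0.39, and the median over all genes was also below 0, at -0.21.

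Against D0 at D4, 5 of the 7 had risen and 0 had fallen, where 10.4% of all genes rose and 8.81% fell. The median log2 ratio was 1.09 for the 7 and 0.06 over all genes. At D8, APOE and ABCA1 were left above the limit and 0 were below it, against 3.6% and 3.68% of all, with medians of 0.70 and -0.18. Both comparisons use the same D0 library. Median-ratio scaling turned the split of all genes from 407 higher and 928 lower to 591 and 546 in D8 vs D4, and from 331 and 338 to 405 and 208 in D8 vs D0. The sets of the 7 that rose or fell stayed as given in D8 vs D4 under it, and MYLIP joined the genes that rose in D8 vs D0.

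**Figure D3:**
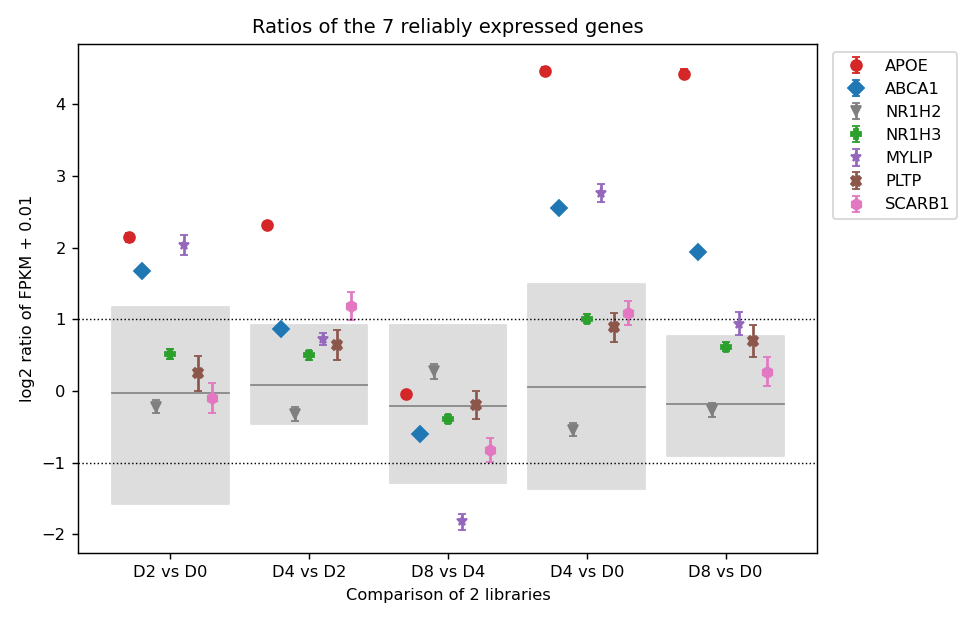
log2 ratio of FPKM + 0.01 for the 7 reliably expressed genes in 5 comparisons, with 95% counting intervals. Grey boxes span the middle 90% of all 9191 reliably expressed genes with their median as a line, dotted lines mark 2-fold, APOE reaches 4.46 in D4 vs D0, and MYLIP lies at -1.82 in D8 vs D4.

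The genes kept unequal pace with the receptor. The ABCA1 to NR1H3 ratio of FPKM was 0.559, 1.25, 1.63 and 1.40 at D0, D2, D4 and D8. The MYLIP to NR1H3 ratio was 0.122, 0.352, 0.412 and 0.153, so MYLIP at D8 had come back near its D0 level relative to NR1H3 while ABCA1 had not. APOE pulled away from ABCA1 throughout, with an APOE to ABCA1 ratio of 4.34 (4.15 to 4.54), 6.01 (5.85 to 6.17), 16.3 (16.1 to 16.6) and 24.3 (23.8 to 24.7). These ratios, too, are free of library scaling.

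Circular RNA from 2 of the 9 genes was listed in the same libraries, all on the strand of the gene and inside it. Levels are in SRPBM, which is back-spliced junction reads scaled by all mapped reads. The NR1H3 circRNA (ssc_circ_0001084, chr2:15322375-15323114) had 764, 1054, 1015 and 1185 SRPBM at D0, D2, D4 and D8, on 119, 145, 171 and 141 junction reads. It ranked 30th, 17th, 16th and 9th of the 8623 circRNAs listed. Its D4 to D0 ratio was 1.33 (1.05 to 1.69) where that of the mRNA was 2.01, and its D8 to D0 ratio was 1.55 (1.21 to 2.0) where that of the mRNA was 1.54. From D4 to D8 the circRNA ratio was 1.17, with an interval that holds 1 (0.927 to 1.47), and the mRNA ratio was 0.762. SRPBM and FPKM are scaled by different library totals, with 1 junction read at 6.42, 7.27, 5.94 and 8.40 SRPBM at D0, D2, D4 and D8. The part of this scaling in the differences between circRNA and mRNA ratios, here and for ABCA1, was not tested.

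ABCA1 had 3 circRNAs with few reads, which share junction ends and are not independent of each other. All 3 were listed at 0 at D0 and D2, which with the authors' minimum of 2 junction reads still allows a single read. The most abundant (ssc_circ_0000569, chr1:246238089-246243861) had 4 junction reads at D4 and 23 at D8, or 23.7 and 193 SRPBM. The D8 to D4 ratio was 8.14 (2.78 to 32.4), while the ABCA1 mRNA ratio in that step was 0.658. The second (ssc_circ_0000568, chr1:246218297-246243861) had 9 and 4 reads, and the last (ssc_circ_0000570, chr1:246238089-246257483) had 0 and 4.

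**Figure D4:**
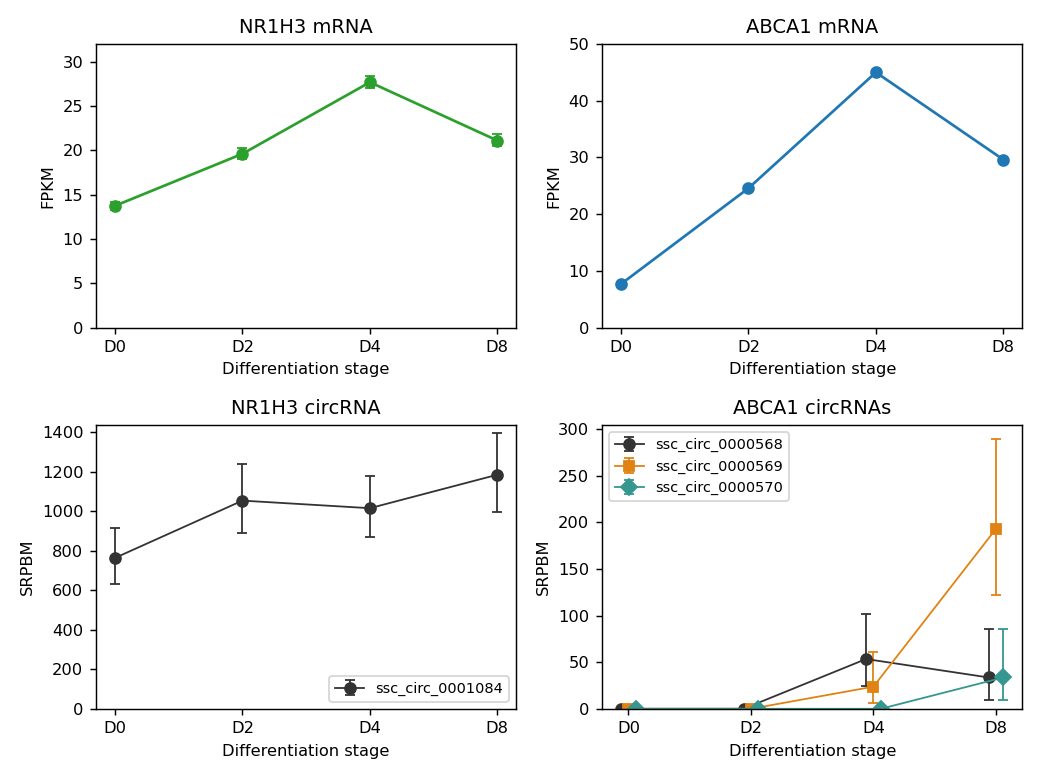
mRNA level in FPKM (top) and circRNA level in SRPBM (bottom) of NR1H3 (left) and ABCA1 (right) by differentiation stage, 1 pooled library each, with 95% counting intervals (none drawn at 0). The NR1H3 circRNA has its highest value at D8 (1185) and its mRNA at D4 (27.7), and ssc_circ_0000569 of ABCA1 reaches 193 at D8.

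Other targets of LXR known from textbooks were reliably expressed for 6 of the 18 genes on that list, of which 12 were in the files. From D0 to D4, 4 of the 6 rose and 1 fell, with a median log2 ratio of 2.72. Over all reliably expressed genes, 10.4% rose and 8.81% fell in that comparison, with a median of 0.06, and the same shares apply to the lists below. The genes that rose were the desaturase SCD (31.5, 249, 1053 and 772 FPKM), the lipoprotein lipase LPL (19.2, 94.7, 250 and 142), the phospholipid acyltransferase LPCAT3 (1.76, 7.30, 13.6 and 8.70) and the fatty acid synthase FASN (3.04, 5.11, 17.2 and 17.7). SCD, LPL and FASN also respond to other adipogenic factors. At D8, 5 of the 6 were above and 1 below the limit against D0, where 3.6% and 3.68% of all genes were. SREBF1, the LXR target that drives lipogenesis, was also picked after its values were seen. It reached 1 FPKM in 2 libraries only, with 0.734, 0.970, 3.34 and 2.61 FPKM.

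Among partners and cofactors of the receptors, 1 gene passed the limit by D4. Of 11 reliably expressed genes, RXRA alone rose from D0 to D4, 0 fell, and the median log2 ratio was -0.02. RXRA, a partner that LXR needs to bind DNA, had 1.41, 2.47, 4.36 and 1.22 FPKM and fell again by D8. RXRB, the more abundant partner, had 13.2, 12.6, 13.1 and 8.02 FPKM. HDAC3, a deacetylase of corepressor complexes, had 10.5, 13.4, 17.8 and 10.1 FPKM.

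Enzymes that make or remove LXR ligands did not move as one. Of 5 reliably expressed genes, 3 rose from D0 to D4 and 1 fell, with a median log2 ratio of 1.12. CYP27A1, which makes the ligand 27-hydroxycholesterol, had 0.297, 1.48, 2.26 and 5.80 FPKM and was highest at D8. CYP39A1, an oxysterol hydroxylase, had 4.01, 7.89, 8.72 and 6.23 FPKM. HSD3B7, which acts on hydroxylated sterols on the way to bile acids, fell from 29.9 at D0 to 13.2 and 11.2 FPKM, and stood at 20.5 at D8. EBP, a sterol isomerase, was the most abundant of them at 52.4, 52.2, 82.9 and 63.6 FPKM.

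Related lipid carriers and transporters gave mixed results. Of 4 reliably expressed genes of other apolipoproteins, APOA1, the main protein of HDL, rose from D0 to D4 (1.37, 1.41, 6.52 and 3.07 FPKM), 0 fell, and the median log2 ratio was -0.47. CLU, also called apolipoprotein J, was abundant throughout and fell from D4 to D8, with 331, 306, 256 and 105 FPKM, and APOOL, a mitochondrial protein in spite of its name, had 22.2, 12.1, 11.7 and 18.9. Both reliably expressed lipocalins besides APOD rose from D0 to D4, LCN2 (6.23, 13.8, 19.8 and 5.20) and PTGDS (2.18, 4.83, 5.17 and 4.42). ABCG2, an exporter of drugs and other small molecules and the one other ABCA or ABCG gene that was reliably expressed, fell, with 5.67, 0.873, 1.5 and 3.09 FPKM. PON2, an antioxidant enzyme on the lipoprotein remodelling list, had 43.0, 85.3, 96.0 and 98.6, and 2 of the 5 reliably expressed genes of that list (LPL, PON2) rose and 0 fell by D4, with a median log2 ratio of 0.21.

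Receptors that take lipoproteins up were reliably expressed for 12 genes, of which 2 rose and 1 fell from D0 to D4, with a median log2 ratio of -0.11. With 10.4% of all genes higher and 8.81% lower, these counts are not read as a result about the receptors. CD36, a scavenger receptor and fatty acid carrier, had 3.90, 20.5, 63.1 and 54.7 FPKM. LRP6, a WNT coreceptor, had 8.90, 19.6, 22.9 and 10.8 FPKM. VLDLR, a receptor for APOE that IDOL also marks for degradation, had 30.6, 15.1, 10.4 and 29.4 FPKM, lowest where MYLIP was highest. LRP8, another receptor of the same kind, had 1.29, 1.31, 1.17 and 0.598 FPKM. LRPAP1, the chaperone of the family, was the most abundant at 126, 215, 210 and 129 FPKM.

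Genes that store and move sterol inside the cell were reliably expressed for 18 genes, of which 3 rose and 2 fell from D0 to D4, with a median log2 ratio of 0.20. With 10.4% of all genes higher and 8.81% lower, these counts are not read as a result about the list. LIPE, a lipase that also splits cholesterol esters, had 0.808, 7.15, 31.9 and 10.3 FPKM. LIPA, the lysosomal lipase, had 4.38, 8.57, 19.1 and 6.92, and NPC1, which lets cholesterol leave the lysosome, had 3.25, 5.73, 8.29 and 3.76. The genes that fell encode oxysterol-binding protein relatives, OSBPL5 (2.93, 1.12, 0.876 and 1.93) and OSBPL9 (52.5, 17.5, 21.3 and 39.1). NPC2, the lysosomal cholesterol carrier, was the most abundant of the list at 223, 235, 296 and 273 FPKM.

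Cholesterol synthesis and SREBP2 genes were reliably expressed for 24 genes. From D0 to D4, 3 rose and 0 fell with a median log2 ratio of 0.37, against 10.4% and 8.81% of all genes. From D4 to D8, 0 rose and 11 fell, against 4.43% and 10.1% of all genes. The median in that step was -0.93, against -0.21 over all genes. Under median-ratio scaling, 8 fell with a median of -0.72, and 546 of all 9191 genes fell. With 1 added to the FPKM, 8 fell, and 474 of all 9191 genes fell. HMGCS1, an early enzyme of the pathway, had 35.4, 46.5, 93.4 and 38.0 FPKM, and HSD17B7, a late one, had 24.7, 43.0, 54.8 and 29.9. FDPS, which makes farnesyl diphosphate, had 94.7, 89.1, 122 and 48.0 FPKM, and ACAT2, an acetyl-CoA acetyltransferase, had 66.9, 88.3, 111 and 46.5. DHCR7, which makes cholesterol in the last step of one branch, had 5.28, 3.98, 5.68 and 2.62 FPKM. The lists share genes with each other (LPL, EBP and STARD4, for example, stand on more than 1), and they were written with earlier results of these data known.

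**Figure D5:**
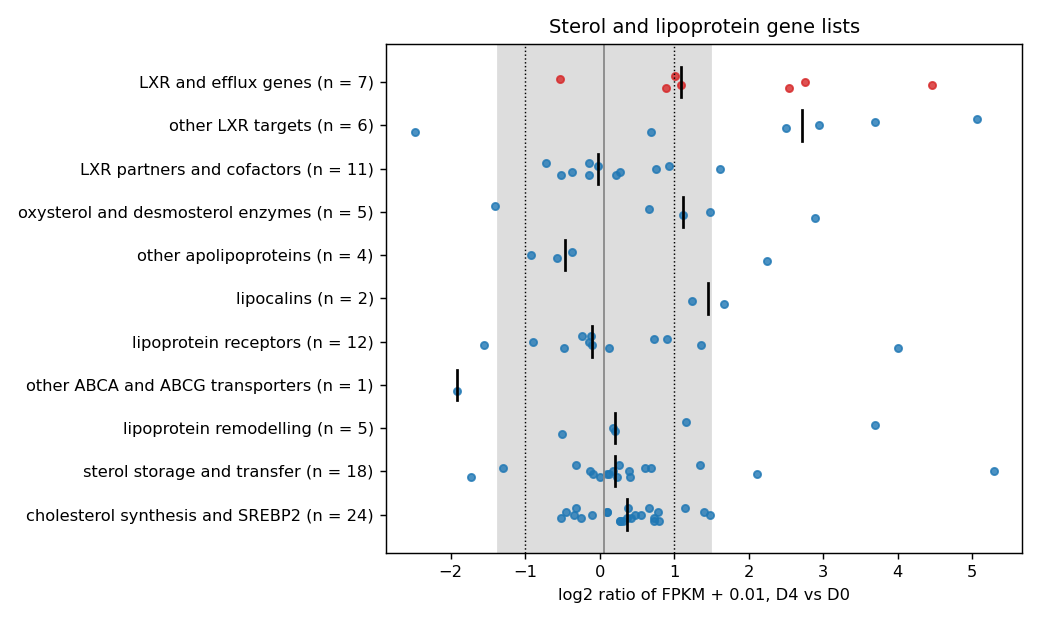
log2 ratio of FPKM + 0.01 in D4 vs D0 for the reliably expressed genes of each list, 1 point a gene, with a black bar at the median of the list. The grey band spans the middle 90% of all 9191 reliably expressed genes, and the bars lie at 1.09 for the LXR and efflux genes, 2.72 for other LXR targets and 0.37 for cholesterol synthesis.

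Markers of other cell types were set beside these results, macrophages first, since they too are rich in APOE and ABCA1. Of 17 macrophage markers, 16 were in the files, 4 were reliably expressed and 9 stayed under 1 FPKM in all libraries. Their sum was 27.0, 14.7, 12.9 and 17.2 FPKM at D0, D2, D4 and D8, of which CD86 gave 19.5, 0.721, 0.959 and 6.42, and without CD86 the sum was 7.46, 14.0, 11.9 and 10.8. The 4 reliably expressed markers were CD14 (3.14, 5.64, 7.54 and 2.78 FPKM), CD163 (0.270, 1.42, 1.0 and 1.38), C1QA (1.05, 1.28, 0.582 and 1.37) and C1QC (0.685, 2.77, 1.09 and 1.2). CD163 was above the 2-fold limit against D0 in all 3 later libraries, CD14 at D4 and C1QC at D2. MRC1 had 0.598, 1.30, 0.671 and 1.10 FPKM. The markers PTPRC, CSF1R and CD68 were at or under 0.0712, 0.109 and 0.223 FPKM, and LYZ was at 0 in 3 libraries. Other low markers were highest at D8. AIF1 had 0.221, 0.273, 0.225 and 1.05 FPKM, TYROBP had 0.678, 0.155, 0.206 and 0.818, and ADGRE1 had 0.0104, 0.00285, 0 and 0.0838. These low markers are examples named outside the rule for markers, and no absence of macrophages is read from them. The 8 endothelial markers in the files summed to 6.53, 2.18, 2.74 and 3.72 FPKM, and the 4 Schwann cell markers to between 0.562 and 1.36. The adipocyte marker sum rose with APOE up to D4. Between D4 and D8, APOE had a ratio of 0.977 and 4 of the 9 reliably expressed adipocyte markers fell, while CIDEC, outside those 9, was higher. The smooth muscle marker sum was lowest at D4, where 8 of the 9 genes were highest in FPKM as deposited (APOE and PLTP not so under median-ratio scaling). The part of each in the levels of the 9 genes was not tested.

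The genes most alike in course were found by the root mean square difference of the 3 log2 ratios to D0, over 4 libraries. APOE was nearest to FABP3, a fatty acid binding protein (153, 638, 3254 and 3805 FPKM, difference 0.13), and then to GPD1, a glycerol phosphate dehydrogenase (0.787, 5.08, 15.4 and 15.9 FPKM, 0.33), and 5 genes in all lay within 0.5. ABCA1 was nearest to LAMA2 and EGFL8 (0.15 each, with 53 genes within 0.5), and MYLIP to ALDH9A1 (0.12) and SRPX (0.14, with 62 genes). The courses of NR1H3 and SCARB1 were common ones, with 1519 and 1292 genes within 0.5. NR1H3 was nearest to PLEKHH2 (0.04) and LIN37 (0.07), and SCARB1 to IRS1 (0.09) and ZNF592 (0.10).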

How the data were processed

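RNA of 3 piglets a stage was pooled, depleted of ribosomal RNA and made into strand-specific libraries. Reads were aligned with HISAT2 2.0.5 to the pig genome (Sscrofa11.1), and circRNAs were found with BWA-MEM and CIRI. The authors deposited FPKM for mRNAs and other genes and SRPBM for circRNAs, in 1 column told apart by biotype. Levels in FPKM and in SRPBM were not compared with each other. Their ratios between stages were set side by side, although the units are scaled by different library totals. The tool that counted fragments is not given in the sources used here.

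Library totals were recovered from the FPKM steps of short unspliced genes, and each gene was given the smallest whole length that made its 4 FPKM values whole reads. This gave reads for 22942 of 22944 features. True read numbers could be a multiple of these, in which case the counting intervals are too wide. FPKM intervals were exact Poisson and ratio intervals exact conditional binomial (scipy 1.17.1, Python 3.11.15), and the steps were tested on simulated data.

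Log2 ratios, and the calls made from them, were differences of log2(FPKM + 0.01), which understate changes of low genes. Fold values and other ratios not given as log2 were plain quotients without the 0.01, with intervals from the reads. For ABCG1 in D4 vs D0, the log2 ratio was 1.27 and the plain quotient 3.55. Calls needed 1 FPKM or more in 3 or more libraries, together with a ratio of at least 2. With 1 library a stage no test was run. The genes named from each list were those past the limit in D4 vs D0 or D8 vs D0 with the largest D4 change (up to 4) and the most abundant (up to 2), and for cell type markers the most abundant (up to 3) and those at 0. Further markers of adipocytes, fibroblasts and macrophages were named outside this rule. The 9 genes and all lists were chosen with earlier results of these data known. Other pseudocounts, scalings, filters and a ratio of 1.5 were tried. Gene positions were those of the deposited files, matched for 9 of 9 genes to RefSeq Sscrofa11.1. Promoter and protein sequences were not analysed here. Some genes of the lists are counted in them but not reported here by name.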

Additional observations from a re-analysis of the deposited data

How the results depend on the processing

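With 1 pooled library a stage, replicate error is unknown and leaving out a replicate was not possible. No paired analysis was possible because each stage has 1 library. Adding 1 to the FPKM in place of 0.01 left 1 of the 9 genes higher in D4 vs D2 and 3 in D4 vs D0. Without the filter on low FPKM, 4 were higher in D4 vs D2, and 8 other LXR targets were higher and 2 lower in D4 vs D0. At a ratio of 1.5, 5 were higher in D4 vs D2, 3 lower in D8 vs D4, 6 higher in D4 vs D0 (PLTP added) and 5 higher in D8 vs D0. Over all genes, 958 rose and 810 fell in D4 vs D0. These numbers were 2842 and 2379 without the filter, 2020 and 1609 at a ratio of 1.5, and 669 and 604 with 1 added. In D4 vs D2, 390 of all genes rose, against 233 with 1 added, 2007 without the filter and 1072 at a ratio of 1.5. At a ratio of 1.5, 2384 of all genes fell in D8 vs D4 and 636 rose in D8 vs D0. All genes numbered 9191, or 16192 without the filter. Of 35 log2 ratios of the 7 reliably expressed genes, 2 crossed the 2-fold limit and 2 changed sign under median-ratio scaling, which moved the median of all genes by up to 0.21, and 1 changed sign under protein-coding sum scaling. With 1 added, 3 crossed the limit. A pseudocount of 0.1 and a filter on all 4 libraries crossed 0. For ABCG1 and APOD, depth sets the limit: 3 reads at D0 correspond to 0.00617 and 0.0314 FPKM.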
